A study of Mus musculus with 14 samples.

Results

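Effector regulatory T cells (eTregs) are activated Tregs, and a small set of transcription factors is known to set their programme. The 9 factors described here are Prdm1, Irf4, Batf, Gata3, Rora, Tbx21, Maf, Pparg and Id2, and all 9 were found among the 22203 transcript clusters with a gene symbol on the Clariom S mouse array (28846 entries with the controls). A transcript cluster is the group of probes that reads 1 gene, and each factor was read from the cluster whose first gene symbol is its own. Rora had 3 such clusters and was read from the one of highest mean.

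RNA came from Tregs of mixed bone marrow chimeras, sorted as CD45.2+ CD4+ Foxp3-YFP+ cells. Donor marrow was Foxp3Cre Atg14+/fl, the control group (labelled het), or Foxp3Cre Atg14fl/fl, the group labelled KO. It was mixed 1:1 with CD45.1+ wild-type marrow, given to sublethally irradiated Rag1-/- hosts, which lack T and B cells of their own, and left for 6 to 8 weeks. The Cre is driven by Foxp3, so in both groups it acts in Foxp3-expressing cells, and the controls carry 1 floxed Atg14 allele. Atg14 encodes a subunit of the lipid kinase complex of Vps34 that starts autophagy. Central Tregs (cTregs) were CD44 low and eTregs were CD44 high, with a gate on a second surface marker. There were 4 control cTreg arrays, 3 cTreg arrays labelled KO (KO cTregs), 4 control eTreg arrays and 3 eTreg arrays labelled KO (KO eTregs). The text of the series speaks of spleen with peripheral nodes, and the methods of spleen only. Neither the age of the mice nor whether each array holds a separate mouse is given in the labels, so P values measure only the spread between these samples. The paper describes both subsets as sorted from the same groups of chimeras, so a cTreg and an eTreg array may share a mouse. The main fit treats all arrays as independent, and fits with the replicate number as a block are given beside it.

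When a Treg is activated through its antigen receptor, Irf4 and Batf are induced and bind joint sites in DNA that hold an interferon regulatory factor motif beside an AP-1 motif. They act upstream of Blimp-1, the repressor encoded by Prdm1, which marks the effector state in lymphoid organs and in many tissues. The remaining factors are known for more specialised Tregs: T-bet (Tbx21) for those that follow type 1 responses, Gata3 for barrier tissues, c-Maf (Maf) for the gut and for follicular Tregs, ROR-alpha (Rora) for skin, and PPAR-gamma (Pparg) for visceral fat. Id2 binds no DNA itself and holds E proteins away from it.

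The promoters of 8 of the 9 genes, 10 start sites in all, were in a RefSeq table of the mouse build GRCm38.p6. Their 250 bases before the start site were read for core motifs of the members' own families on both strands. The promoter of Prdm1 held TGANTCA, a loose form of the AP-1 motif that leaves its middle base open. That of Batf held AGATAA, the motif of Gata3 and its family. Pparg had promoters with TCACACC, the motif of T-box factors, and with AGGTCA, that of nuclear receptors. Gata3 held TGCTGA, the core motif of Maf, and Id2 held CAGCTG, the E-box that E proteins bind. No member promoter held GAAANNGAA (interferon regulatory factors), AGNGAAAG (Blimp-1) or TAGGTCA (ROR), the last of which contains AGGTCA. Among all 32841 promoters of that table the shares were 6.75% for TGANTCA, 9.99% for AGATAA, 3.33% for TCACACC, 14% for AGGTCA, 16.1% for TGCTGA, 13% for CAGCTG, 7.13% for GAAANNGAA, 7.3% for AGNGAAAG and 2.24% for TAGGTCA. The sequences of 4 promoters that hold a match are shown, because they belong to the repressor that marks the effector state (Prdm1), to the AP-1 family member (Batf), to a factor present in every group (Id2) and to the factor of smallest difference between subsets (Gata3). They run 5′ to 3′ on the strand of the gene in lower case, and capitals mark the match.
Prdm1, chr10:44458749-44458998 (- strand): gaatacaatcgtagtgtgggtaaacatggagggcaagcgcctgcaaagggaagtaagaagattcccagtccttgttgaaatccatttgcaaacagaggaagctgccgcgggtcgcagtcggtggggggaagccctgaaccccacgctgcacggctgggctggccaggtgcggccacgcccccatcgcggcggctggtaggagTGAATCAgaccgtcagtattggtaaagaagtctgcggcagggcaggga
Batf, chr12:85686470-85686719 (+ strand): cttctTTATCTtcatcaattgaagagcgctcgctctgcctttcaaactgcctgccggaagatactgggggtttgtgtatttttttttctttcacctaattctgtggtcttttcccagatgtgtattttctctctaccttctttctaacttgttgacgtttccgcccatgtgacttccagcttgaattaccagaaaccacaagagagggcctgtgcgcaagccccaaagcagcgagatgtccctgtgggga
Id2, chr12:25096093-25096342 (- strand): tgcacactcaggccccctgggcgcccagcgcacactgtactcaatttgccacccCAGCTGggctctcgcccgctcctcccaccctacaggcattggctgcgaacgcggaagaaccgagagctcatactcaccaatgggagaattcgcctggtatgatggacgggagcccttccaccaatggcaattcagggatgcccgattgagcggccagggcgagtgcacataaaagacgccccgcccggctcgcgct
Gata3, chr2:9878601-9878850 (- strand): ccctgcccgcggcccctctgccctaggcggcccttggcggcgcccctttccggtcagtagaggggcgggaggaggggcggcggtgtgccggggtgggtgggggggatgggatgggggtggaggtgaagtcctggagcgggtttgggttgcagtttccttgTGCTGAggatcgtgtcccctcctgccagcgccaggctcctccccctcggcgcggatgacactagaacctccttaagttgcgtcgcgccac
The TGANTCA match of Prdm1 reads TGAATCA, with A at the open base, and its last base lies 42 bases before the start site. The last base of the GATA match of Batf, on the opposite strand, lies 240 bases before it. The Id2 E-box lies 191 bases before the start site, and the Maf motif of Gata3 lies 85 bases before it. The promoters also differed in base content. That of Batf had 46.4% G and C, below the median of 52.4% over the table, whereas those shown for Prdm1, Id2 and Gata3 had 59.2%, 62.8% and 70%. A match is a string of letters and not a measured site.

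Some facts of the series bear on all of these values. Atg14 was not lower in arrays labelled KO (log2 difference 0.32 in eTregs and 0.35 in cTregs), so the genotype labels could not be checked by it, and whether its probes lie in the deleted part is not given in the sources used here. Of the lineage genes, Foxp3 read 12.73 to 13.12 and Cd4 12.46 to 12.75 on every array. The sorting marker Cd44 rose from cTregs to eTregs by 1.61 in controls and 1.80 in KO arrays (limma adjusted P = 0.000121 and 0.00036). The KO eTreg arrays did not lie together. On the first principal component, with 34.5% of the variance, KO eTreg 1 lay at -4.30. It was between the cTregs (-26.6 to -12.8) and the control eTregs (5.26 to 21.9). KO eTregs 2 and 3 lay at 39.9 and 39.5, above every control eTreg. The Cd44 signal of KO eTreg 1 was 10.60, against 11.52 and 11.49 in KO eTregs 2 and 3. Results that rest on KO eTreg 1 are given with and without it. In sorted bulk RNA, fewer cells with a transcript and less transcript per cell cannot be told apart.

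Prdm1 was dim in cTregs and bright in eTregs. Its log2 signals were 6.46, 7.17, 7.62 and 7.66 in the control cTregs and 9.64, 9.99, 9.49 and 9.97 in the control eTregs. In arrays labelled KO they were 6.68, 7.99 and 7.62 in cTregs and 8.58, 9.62 and 10.48 in eTregs. Every eTreg array lay above every cTreg array in both genotypes. The mean rose from 7.23 ± 0.56 (SD, n = 4) to 9.77 ± 0.25 (SD, n = 4) in controls, a fitted log2 difference of 2.55 (SE 0.36, limma adjusted P = 0.00047). With the KO label the mean rose from 7.43 ± 0.68 (SD, n = 3) to 9.56 ± 0.95 (SD, n = 3), by 2.13 (SE 0.41, adjusted P = 0.0106). None of the 4 control cTregs reached the median of the negative control probe sets of its array (7.92 to 8.54 over all arrays), while all 7 eTreg arrays exceeded it, so the rise in controls is known only as a bound, at least 2.76-fold or 1.46 on the log2 scale.

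Irf4, the interferon regulatory factor, rose in controls too. It read 8.77, 9.26, 9.19 and 9.20 in control cTregs and 9.76, 10.26, 9.86 and 9.98 in control eTregs. The groups did not overlap and the difference was 0.86 (SE 0.18, adjusted P = 0.00958), or 1.82-fold. In arrays labelled KO its values were 9.22, 9.65 and 9.74 in cTregs and 9.81, 10.51 and 10.57 in eTregs. Here KO eTreg 1 was only 0.072 above the highest cTreg, and the difference of 0.76 (SE 0.20) did not pass the test in the main fit (adjusted P = 0.0660). It passed with the replicate number as a block (limma adjusted P = 0.00612 as a fixed term and 0.0155 as a random term).

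Batf, the AP-1 family partner of Irf4, moved by less, and of the 9 factors it had the smallest SD among the control eTregs. It read 11.05, 11.34, 11.34 and 11.52 in control cTregs and 11.96, 11.93, 11.93 and 11.99 in control eTregs. The difference of 0.64 (SE 0.11, adjusted P = 0.00352), or 1.56-fold, came with an SD of 0.030 in that group. The KO arrays gave 11.24, 11.45 and 11.29 in cTregs and 11.60, 11.99 and 11.94 in eTregs. All KO eTregs lay above all KO cTregs, and the difference of 0.52 (SE 0.13) missed the test narrowly in the main fit (adjusted P = 0.05003). It passed with the replicate number as a block (limma adjusted P = 0.0389 as a fixed term and 0.0155 as a random term).

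Rora, the nuclear receptor, was separated widely between the subsets in both genotypes. It read 9.17, 9.72, 9.66 and 9.58 in control cTregs and 11.25, 11.30, 11.38 and 10.99 in control eTregs, a rise of 1.69 (SE 0.16, adjusted P = 1.74e-05), or 3.23-fold. Values in KO arrays were 9.29, 9.70 and 9.32 in cTregs and 10.80, 11.27 and 11.53 in eTregs, a rise of 1.77 (SE 0.19, adjusted P = 8.65e-05), or 3.40-fold. A gap of more than 1 log2 unit separated the subsets in each genotype. The other clusters of Rora, which carry other RefSeq transcripts, did not read alike. The one annotated with NM_001289916 rose by 2.05 in controls and 2.31 in KO arrays (adjusted P = 1.5e-06 and 6.35e-06). The one annotated with NM_001289917 stayed between 6.12 and 6.82 on all 14 arrays, below every negative control median, with differences of 0.30 and -0.24 that passed no test.

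Maf, the bZIP factor c-Maf, rose from a narrow cTreg range. It read 8.99, 9.02, 9.09 and 9.12 in control cTregs and 10.45, 10.59, 10.19 and 10.45 in control eTregs, a difference of 1.36 (SE 0.13, adjusted P = 1.22e-05), or 2.58-fold. Arrays labelled KO gave 9.38, 8.97 and 9.23 in cTregs and 10.06, 10.58 and 10.40 in eTregs, a difference of 1.15 (SE 0.15, adjusted P = 0.000447), or 2.22-fold. No eTreg array fell within the range of the cTregs.

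Tbx21, which encodes T-bet, was dim in cTregs. It read 7.99, 7.89, 7.94 and 7.99 in control cTregs, all below the negative control median of their array, and 9.54, 8.79, 8.93 and 9.26 in control eTregs. The difference was 1.18 (SE 0.17, adjusted P = 0.000692), and against the negative control median it is at least 1.76-fold. With the KO label its values were 7.75, 8.18 and 7.85 in cTregs and 8.90, 9.43 and 9.67 in eTregs, a difference of 1.41 (SE 0.20, adjusted P = 0.00109). The subsets did not overlap in either genotype, and the spread among control eTregs (SD 0.34) was wider than among control cTregs (SD 0.048).

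Id2, the E protein inhibitor, was bright in both subsets. It read 11.02, 10.73, 10.83 and 10.82 in control cTregs and 11.83, 11.73, 11.84 and 11.75 in control eTregs, a difference of 0.93 (SE 0.12, adjusted P = 0.00031), or 1.91-fold. The arrays labelled KO held 10.59, 10.69 and 10.74 in cTregs and 11.34, 11.84 and 12.01 in eTregs, a difference of 1.05 (SE 0.14, adjusted P = 0.000792), or 2.08-fold. The gap between subsets was 0.70 in controls and 0.60 in KO arrays.

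Gata3 was the factor whose subset difference was smallest. It read 12.33, 12.48, 12.44 and 12.44 in control cTregs and 12.72, 12.78, 12.69 and 12.69 in control eTregs. These ranges did not overlap, but the difference of 0.30 (SE 0.096) was below the 0.5 that a call asks for, with an adjusted P of 0.125. In KO arrays it read 12.26, 12.66 and 12.59 in cTregs and 12.46, 12.53 and 12.46 in eTregs. There the eTregs lay inside the range of the cTregs, and the difference was -0.02 (95% interval -0.26 to 0.21, adjusted P = 0.960).

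Pparg, the nuclear receptor of fat-resident Tregs, was the dimmest, and 13 of its 14 values were below the negative control median of their array. It read 6.78, 6.91, 7.25 and 6.37 in control cTregs and 7.50, 8.09, 7.25 and 7.27 in control eTregs. The ranges were separated by only 0.0056, and the difference of 0.70 (SE 0.23) passed no call (adjusted P = 0.127). Among KO arrays the values were 6.75, 6.72 and 6.81 in cTregs and 7.14, 8.16 and 7.95 in eTregs, a difference of 0.99 (SE 0.26, adjusted P = 0.0602). No fold is given because both subsets were at background.

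**Figure D1:**
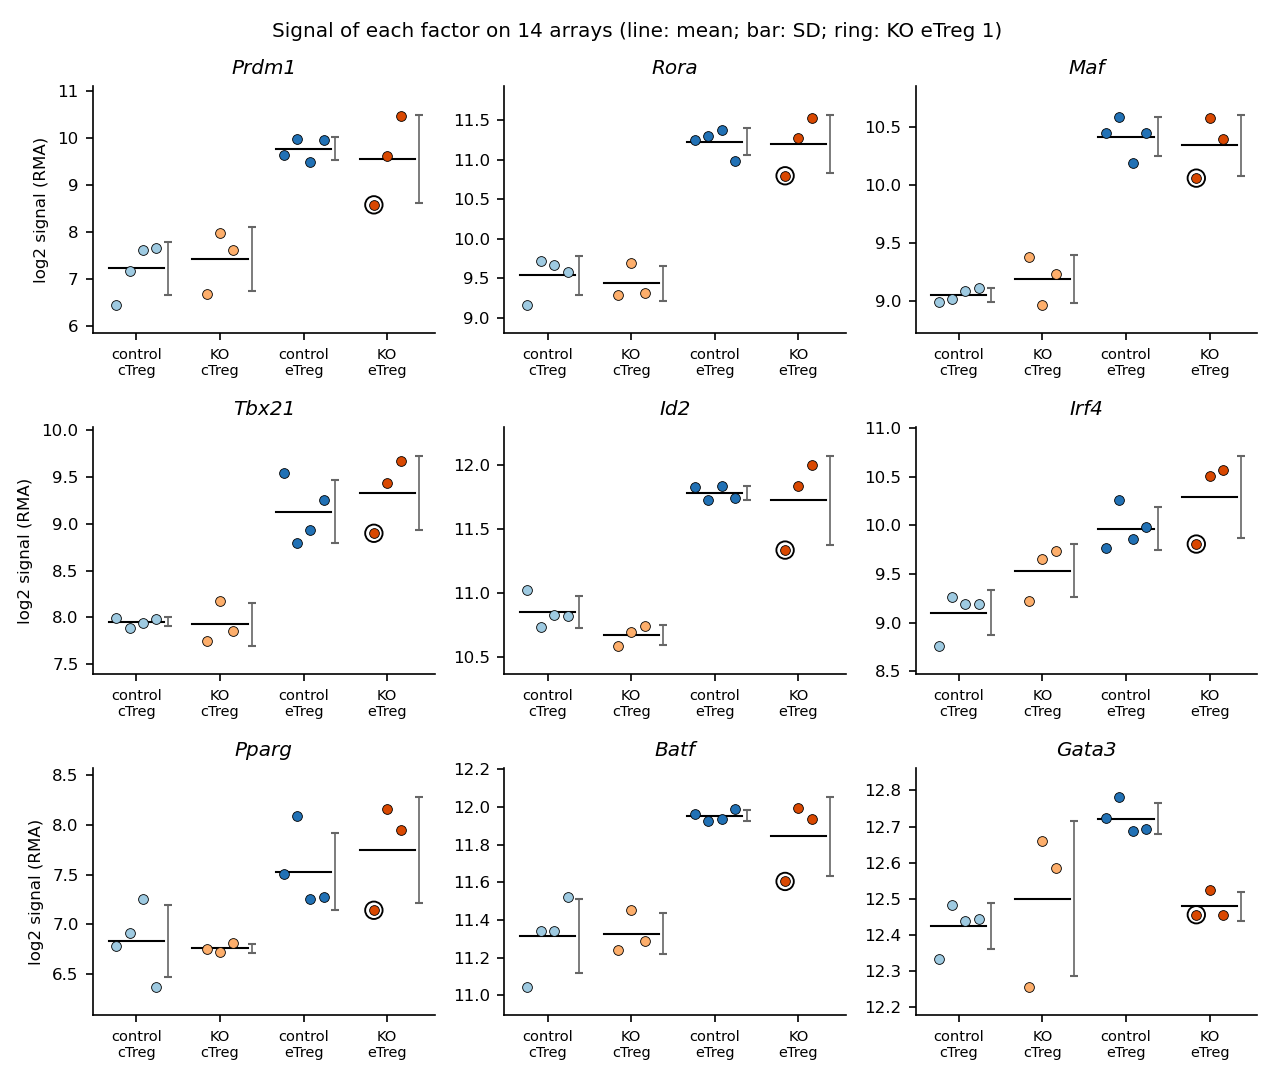
Log2 signal (RMA, vertical axes, each panel with its own range) of the 9 factors in control cTregs, KO cTregs, control eTregs and KO eTregs. Points are arrays, lines are group means, bars are SDs and the ring marks KO eTreg 1. For all factors but Gata3 and Pparg every eTreg array lies above every cTreg array, and for Gata3 the KO eTregs (12.46 to 12.53) lie below the control eTregs (12.69 to 12.78).

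Counted over the 9 factors, 7 of 9 passed the call as higher in control eTregs than control cTregs (all but Gata3 and Pparg), where the share of all transcript clusters called higher was 2.14%. None of the 9 was called lower, where the share was 0.919%. A call asks for an absolute log2 difference of 0.5 or more and a Benjamini-Hochberg adjusted P below 0.05 over all 22203 transcript clusters. The eTreg arrays lay above the cTreg arrays without overlap for 9 of 9 factors, against 6.12% of all clusters. The median difference of the 9 was 0.93, and over all clusters it was 0.003. The 9 factors were chosen with earlier results of these data known, so these counts are a description.

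In KO arrays 5 of 9 passed as higher in eTregs (Prdm1, Rora, Tbx21, Maf and Id2), where the share of all clusters was 2.02%, and 0 of 9 as lower, where it was 0.329%. Without KO eTreg 1 the count was 8 of 9, all but Gata3, and the share of all clusters called higher was 4.48%. Leaving out KO eTreg 3 or KO cTreg 1 ended the call of Prdm1, and leaving out 1 array at a time gave counts of 4 to 8. In alternative fits with the replicate number as a block, Irf4 and Batf passed as well. The count was then 7 (fixed term) or 8 (random term). There was no overlap for 8 of 9 factors, against 6.46% of all clusters, and the exception was Gata3. The median difference was 1.05 over the 9 and -0.044 over all clusters. Among the 6 factors above the negative control median on all arrays, the differences in controls ran in the order Rora, Maf, Id2, Irf4, Batf and Gata3, and the order was the same in KO arrays. The 95% intervals of neighbours overlapped, except those of Batf and Gata3 in KO arrays. Differences between factors were not tested. Prdm1, Tbx21 and Pparg have no place in this order because they were not above that median on all arrays. Ordered by level within each factor, both cTreg groups lay below both eTreg groups for 8 of 9. Gata3 ran from control cTregs through KO eTregs and KO cTregs to control eTregs. Genotypes next to each other in these orders overlapped, except for Gata3 in eTregs.

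**Figure D2:**
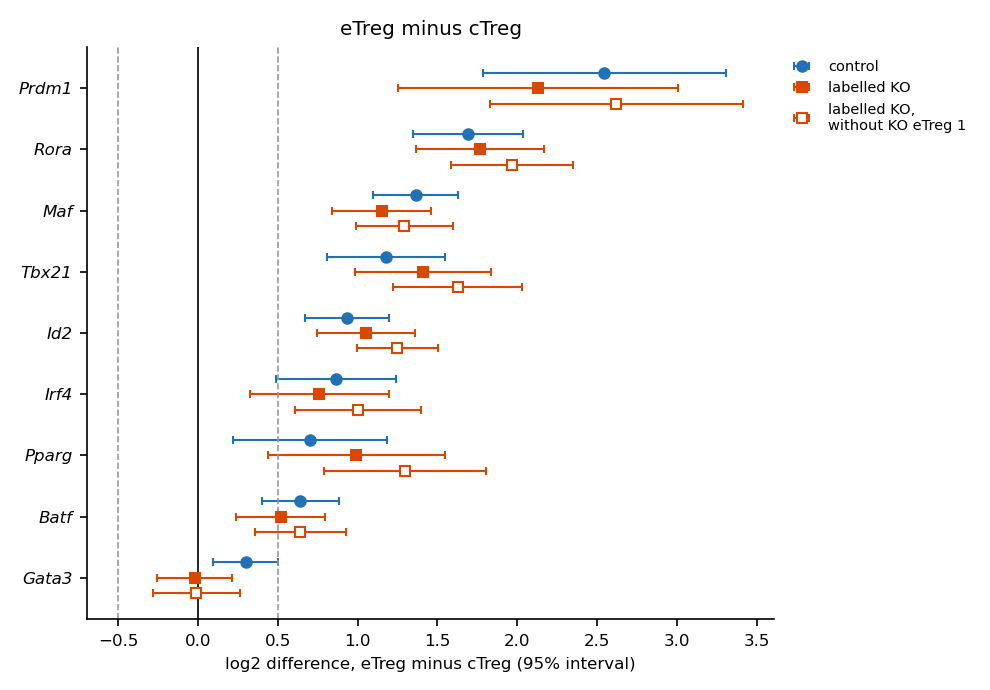
Log2 difference between eTregs and cTregs (horizontal axis) for each factor in controls (circles), in arrays labelled KO (filled squares) and in those without KO eTreg 1 (open squares), with 95% intervals from limma. Dashed lines mark an absolute difference of 0.5. The fitted value of Prdm1 is 2.55 in controls, where its bound is 1.46, and Gata3 is lowest at 0.30 and -0.02.

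The comparison of genotypes asks whether eTregs labelled KO for Atg14 carried these factors at other levels than control eTregs. None of the 9 passed the call in eTregs (0.117% of all clusters did), and none passed at an unadjusted P below 0.05 with the same difference of 0.5 (2.72% of all clusters). By limma, 1 of 9 had an unadjusted P below 0.05, against 8.03% of all clusters. The differences, KO minus control, ran from -0.24 for Gata3 to 0.33 for Irf4, with a median of -0.06 over the 9 and -0.02 over all clusters.

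Gata3 was the 1 factor whose eTreg groups did not overlap, with 3 KO eTregs at 12.46 to 12.53 and 4 control eTregs at 12.69 to 12.78. This occurred in the downward direction for 3.84% of all clusters. The difference was -0.24 (95% interval -0.46 to -0.02), and it did not hold after adjustment over all clusters (limma adjusted P = 0.550). For the other 8 factors the KO eTregs overlapped the control eTregs. Their intervals leave room for sizeable differences in Prdm1 (-0.21, interval -1.04 to 0.61), Irf4 (0.33, -0.08 to 0.73) and Pparg (0.22, -0.30 to 0.74). They were narrower for Rora (-0.03, -0.40 to 0.35), Batf (-0.11, -0.37 to 0.15), Maf (-0.07, -0.36 to 0.22) and Id2 (-0.06, -0.34 to 0.23). For Tbx21 the difference was 0.20 (-0.20 to 0.60).

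In cTregs none of the 9 passed the call (0.045% of all clusters did) or the unadjusted rule (0.576%), and the genotypes overlapped for all 9. Among the clusters read for the 9 factors, Irf4 had the largest difference, 0.43 (95% interval 0.03 to 0.84). It read 9.22 to 9.74 in KO cTregs and 8.77 to 9.26 in control cTregs. Its unadjusted limma P was 0.0387 and its adjusted P 0.9999. Irf4 was thus the factor with the largest positive difference in both subsets, and neither passed. The remaining differences ran from -0.18 for Id2 to 0.20 for Prdm1. The cluster of Rora annotated with NM_001289916 is not counted here and read -0.48 (limma adjusted P = 0.9999).

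Whether the genotype difference itself changed from cTregs to eTregs was tested as an interaction. No factor passed the call, as for all clusters (0%), and none passed the unadjusted rule (3.05% of all clusters). Gata3 came nearest, at -0.32 (95% interval -0.63 to -0.01, limma adjusted P = 0.812). Without KO eTreg 1 it was -0.31, with an interval that included 0 (-0.65 to 0.034). The widest interval was that of Prdm1, -0.41 (-1.58 to 0.75). So the 2 calls more in controls than in KO arrays (Irf4 and Batf) are not shown to be differences between the genotypes.

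**Figure D3:**
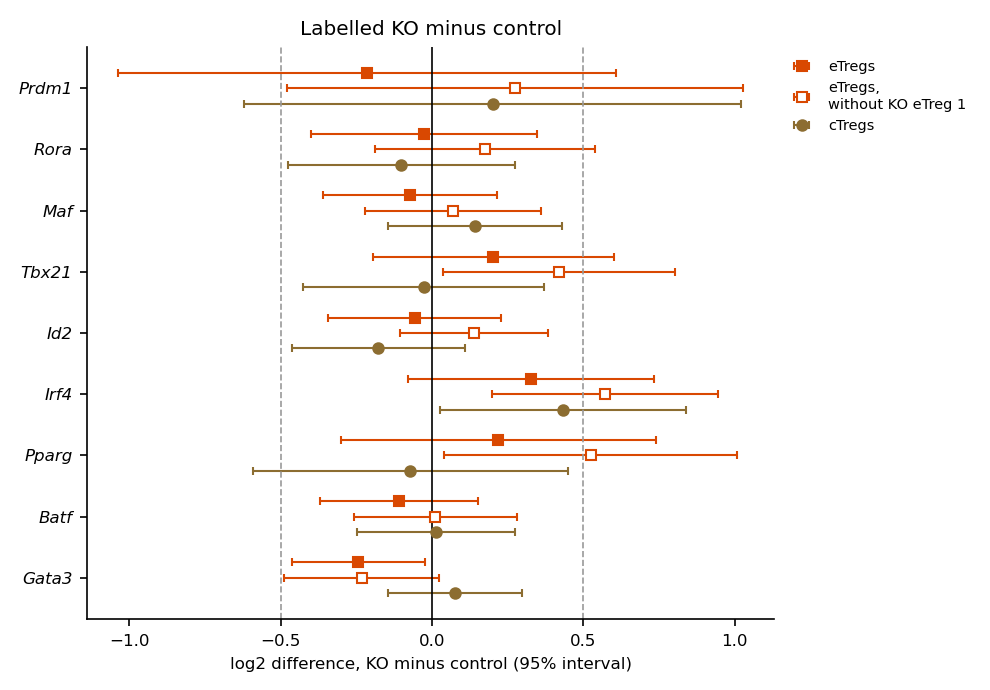
Log2 difference between arrays labelled KO and controls (horizontal axis) for each factor in eTregs (filled squares), in eTregs without KO eTreg 1 (open squares) and in cTregs (circles), with 95% intervals from limma. Dashed lines mark an absolute difference of 0.5. The filled squares lie between -0.24 (Gata3) and 0.33 (Irf4), and the highest circle is Irf4 in cTregs at 0.43.

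The array KO eTreg 1 carried much of the spread among KO eTregs. It was the lowest of the 3 KO eTregs for 8 of 9 factors, all but Gata3, where it was so for 30.5% of all clusters and for 77.1% of the 476 clusters called higher in control eTregs. Its distance below the mean of KO eTregs 2 and 3 was -1.47 for Prdm1, -0.91 for Pparg, -0.73 for Irf4, -0.65 for Tbx21, -0.60 for Rora and -0.59 for Id2. It was -0.43 for Maf, -0.36 for Batf and -0.03 for Gata3. The SD of KO eTregs exceeded that of control eTregs for 8 of 9 factors, for 56.3% of all clusters and for 71.8% of those 476 clusters. For Prdm1 it was 0.95 against 0.25, and for Id2 0.35 against 0.056.

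Without this array the differences between KO eTregs and control eTregs moved upward. Prdm1 went from -0.21 to 0.27 and Irf4 from 0.33 to 0.57, while Gata3 stayed at -0.23. Differences in 2 of 9 factors, Irf4 and Pparg (0.52), then passed the unadjusted rule, as did 4.97% of all clusters. The adjusted call was passed by 0 of 9 factors and by 2.04% of all clusters. Pparg was below the negative control median on all control eTregs. The unadjusted limma P of Irf4 was 0.00524 (adjusted P = 0.145), with both arrays (10.51 and 10.57) above the 4 control eTregs. Prdm1, Rora, Maf, Batf and Id2 changed sign, so no direction is given for their difference between genotypes in eTregs.

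Markers of other cells moved along with these arrays. The summed log2 level of 12 monocyte and macrophage markers was 11.8 to 12.0 in control cTregs, 12.0 to 12.1 in KO cTregs, 12.7 to 13.1 in control eTregs and 12.3 in KO eTreg 1, but 14.4 in both KO eTregs 2 and 3. Of the 12, Cybb was called higher in control eTregs than control cTregs, and Adgre1, Mrc1, C1qa, C1qc and Cybb in KO eTregs than KO cTregs. Of 8 dendritic cell markers, Itgax and Siglech were called higher in KO eTregs than KO cTregs, and Siglech, a marker of plasmacytoid dendritic cells, also in KO eTregs than control eTregs. Cd22, a B cell marker, and Klrb1c, an NK cell marker, were called higher in eTregs in both genotypes, as 1 of 7 B cell markers and 1 of 8 markers of NK and CD8 T cells. Of those 8 markers, 2 were called lower in control eTregs and 0 in KO eTregs. The median difference of the 8 was -0.09 in controls and 0.46 in KO arrays. At the 95th percentile of the GC-matched background probe sets, 11 of the 12 macrophage markers were at background on all cTreg arrays of each genotype, 7 on all control eTregs and 2 on all KO eTregs. Other cell types are known to carry some of the factors, such as Tbx21 and Id2 in NK cells and Irf4 and Maf in macrophages. The part of these cells in the members' values was not tested. The median difference of the 12 macrophage markers between control eTregs and control cTregs was 0.56.

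For context, lists of genes around the factors were read in the same fit. The lists were chosen with earlier results of these data known, so their counts are a description. Of all clusters, 2.14% were called higher and 0.919% lower in control eTregs than control cTregs, and 2.02% and 0.329% in KO arrays. Of 31 relatives from the same families (such as other Irf, Gata, Maf and Id genes), 30 passed no call in controls and 30 passed none in KO arrays. The median difference of the 31 was 0.004 in controls and -0.07 in KO arrays, close to that of all clusters.

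Of 17 partners and antagonists, Bcl6 and Bach2 were called in controls and 0 of 17 in KO arrays. Bach2, a repressor that opposes Prdm1, fell by 0.83 (adjusted P = 0.00105). Bcl6, the follicular factor that also opposes Prdm1, rose by 0.81 (adjusted P = 0.014) and so moved in the same direction as Prdm1. The AP-1 partners of Batf, the E proteins and the Runx genes on this list passed no call in the main fit. In KO arrays Bach2 (-0.48, adjusted P = 0.112) and Bcl6 (0.43, adjusted P = 0.370) passed no call either, and the interaction did not pass for them (adjusted P = 0.847 and 0.866). Without KO eTreg 1, Bach2 was called lower in KO arrays, and Spi1 and Zfpm1 higher. Spi1, which encodes PU.1, is itself a myeloid factor.

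Of 32 genes that the factors are known to act on, 18 were called higher in control eTregs and 15 in KO eTregs, and 0 lower in either, while 14 and 17 passed no call, with medians of 0.71 and 0.68. The shares of all clusters called higher were 2.14% and 2.02%, but this list was chosen with earlier results known. From the Irf4 and Prdm1 group these were Il10 (1.87 in controls, 1.51 in KO arrays), Icos (1.69, 1.27), Ccr6 (2.64, 2.20), Gzmb (2.24, 2.48) and Lag3 (1.29, 1.05), which encode a cytokine, a costimulatory receptor, a chemokine receptor, a protease and an inhibitory receptor. From the Batf and Gata3 group they were Ccr8 (1.98, 1.93), Il1rl1 (2.51, 2.94), Areg (1.28, 0.97) and Nfil3 (1.70, 1.31), and in controls also Klrg1 (1.65). The KO arrays read 1.04 for Klrg1 with an adjusted P of 0.134, and the interaction did not pass (adjusted P = 0.866). All cTreg values of Il10, and those of Klrg1 in controls, lay below the negative control median, so their rises are bounds of at least 1.58-fold for Il10 in controls, 1.49-fold in KO arrays and 1.60-fold for Klrg1.

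Of the genes tied to Tbx21, Cxcr3 (0.58, 0.76) and Ifng (2.24, 1.91) were called in both genotypes, and Ccl5 in controls (0.68). Ccl5 passed no call in KO arrays, with means of 8.49 in cTregs and 8.77 in eTregs. Il4, tied to Gata3 and Maf, rose by 1.67 and 2.24, although Gata3 itself passed no call. For Ifng and Il4 all cTreg values were below the negative control median too, and the bounds are at least 2.40-fold in controls and 2.31-fold in KO arrays for Ifng, and 1.21-fold and 1.54-fold for Il4. Of the clock genes that answer to Rora, Arntl rose by 0.53 and 0.51, and Nr1d1 by 0.79 in controls. Nr1d1 passed no call in KO arrays, with means of 8.96 in cTregs and 9.22 in eTregs. The interaction passed for neither Ccl5 nor Nr1d1. None of the 7 genes tied to Pparg was called in either genotype. Cxcr5 had been listed as a gene that Prdm1 or Id2 lowers, and it rose 2.83-fold and 3.62-fold (adjusted P = 0.00955 and 0.00977), along with both.

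Il21, a cytokine gene that c-Maf is known to drive, was the 1 linked gene called between genotypes in eTregs. The control eTregs had a mean of 8.29 ± 0.23 (SD, n = 4), and the KO eTregs one of 9.08 ± 0.085 (SD, n = 3). The difference was 0.80 (SE 0.14, limma adjusted P = 0.0354), and the groups did not overlap. In cTregs the difference was 0.19. Its interaction did not pass (0.60, adjusted P = 0.736), and the difference of Maf itself in eTregs was -0.07. The call was also made without KO eTreg 1. Il21 stayed below the 95th percentile of the GC-matched background probe sets on all 14 arrays, and 2 of the 4 control eTregs were below the negative control median. It was also called between subsets in controls, where all cTregs were below that median. The bound there was 0.98-fold, so no rise is shown.

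Of 12 factors of the central state, Lef1, Bach2, Klf2, Satb1 and Sox4 fell in control eTregs and Bcl6 rose. Lef1 (-0.63 and -0.62), Klf2 (-0.87 and -0.75) and Satb1 (-1.08 and -0.75) fell in both genotypes. Sox4 (-0.80 in controls) read -0.72 in KO arrays with an adjusted P of 0.0584. Without KO eTreg 1, 6 of the 12 were called lower in KO arrays, the additional ones being Bach2, Foxp1 and Sox4. In that fit 242 of all 22203 clusters were called lower, against 73 with the array. The medians of the 12 were -0.48 in controls and -0.41 in KO arrays. Bach2 and Bcl6 are on this list and on the list of antagonists, and Id3, the counterpart of Id2, is on this list and among the relatives. None of the 12 was called between genotypes.

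**Figure D4:**
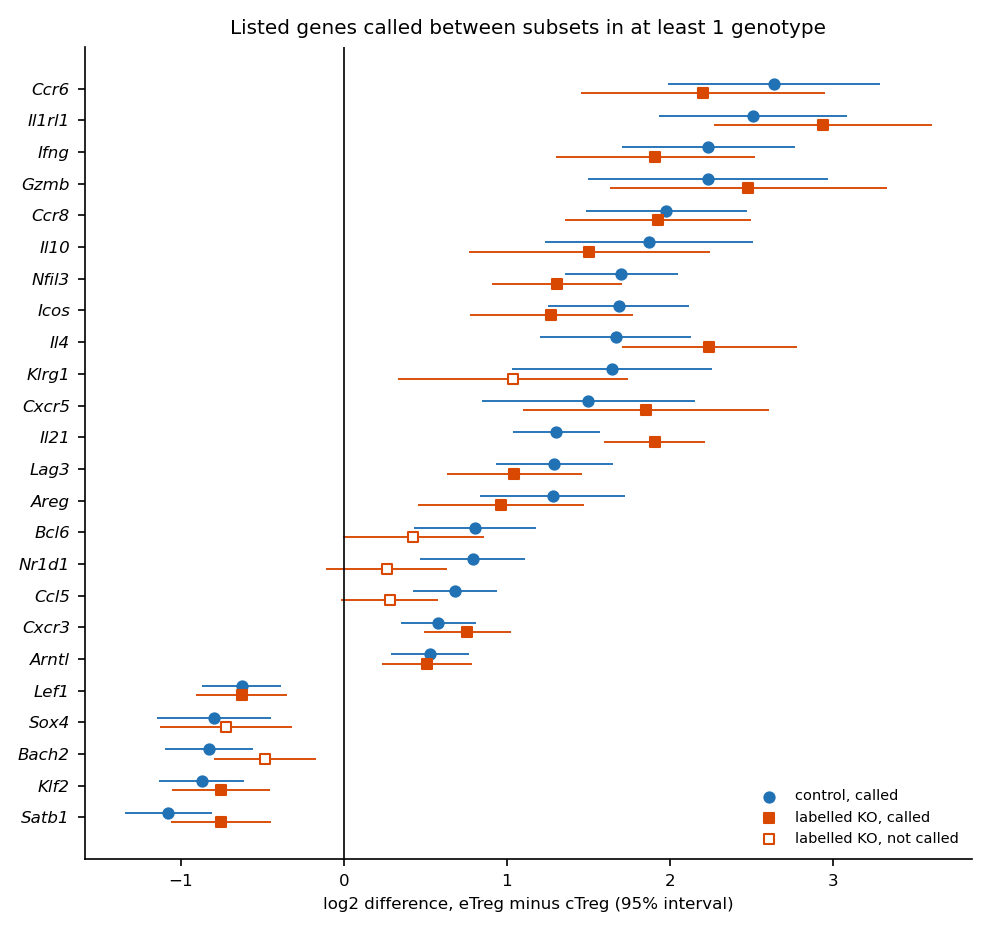
Log2 difference between eTregs and cTregs (horizontal axis) of the 24 partners, antagonists, linked genes and central factors that passed the call in at least 1 genotype, in controls (circles) and in arrays labelled KO (squares), with 95% intervals from limma. Filled marks passed the call. The 5 genes to the left of 0 are central factors, and Ccr6 is the highest in controls at 2.64. Values of Il10, Il4, Ifng, Il21 and Klrg1 are fitted against cTregs that lay below the negative control median in controls.

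The profile of each called factor over the 14 arrays was set against all brighter clusters by the root mean square (RMS) difference in log2 signal after each was centred on its own mean, so that a small value means a like pattern and size. Nearest to Prdm1 were Ccr8 (RMS 0.34), S100a6 (0.38) and the second cluster of Rora (0.45). Nearest to Rora were Myo1f (0.17), Cd44 (0.20), the sorting marker, and Itgb1 (0.20). Nearest to Maf were Serpina3g (0.17), Fam129a (0.18) and Nfil3 (0.22), and to Irf4 Ifitm2 (0.20), Hist1h2bb (0.20) and Ctsb (0.20).

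For the remaining called factors the nearest were Zc3h12d (0.097), Cd82 (0.10) and Rab11fip4 (0.11) for Batf, Id2 (0.25), Casp1 (0.27) and Fcrl1 (0.27) for Tbx21, and Atf6 (0.15), Trps1 (0.15) and Tmem154 (0.15) for Id2. Tbx21 and Id2 were thus also among the closest pairs of members (0.25), as were Batf and Gata3 (0.25) and Maf and Id2 (0.25). The farthest pair was Prdm1 and Gata3 (1.20). These values share the 14 arrays and the subset difference, and are a description.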

How the data were processed

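RNA of 14 sorted Treg samples was measured on Clariom S mouse arrays. Per the labels and methods, the authors processed the arrays by RMA (background correction, quantile normalization and summary of the probes) with Affymetrix Expression Console 1.1, which gave the log2 values they deposited. Probe sets at background are pulled toward each other on this scale, which can understate differences of dim transcripts such as Prdm1, Tbx21 and Pparg. The genome build of the files is not given in the sources used here. Arrays have no read depth, and their number and the signal over background limit the precision.

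From these values 4 group means were fitted with limma 3.58.1 (lmFit and eBayes, R 4.3.3) over 22203 transcript clusters with a gene symbol, with 5 contrasts and no block. P values are two-sided moderated tests with Benjamini-Hochberg adjustment. The spread was estimated over all groups, so that each SE rests on 10 residual degrees of freedom and 5.65 prior ones. The script was tested on simulated data. Control probe sets were left out of the fit. Genes were named if they were members, were on a list and passed the call in at least 1 contrast, were the 3 nearest to a called member in profile, or were a check gene; the markers named also passed a call. The members and lists were chosen with earlier results of these data known. The second rule, after the study's methods, used an unadjusted P below 0.05. Replicate numbers in the labels were not taken as pairs in the main fit, as the study's methods name no block. Same-numbered samples correlated by 0.044 to 0.303 after group means were subtracted, which does not settle whether they are pairs. A total of 24 alternatives were run, and 1 of them, a filter on the level of the negative control probe sets, was chosen after seeing the data. Promoter sequences came from a RefSeq table of GRCm38.p6. Results for some listed and check genes are not reported here.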

Additional observations from a re-analysis of the deposited data

Results flagged for a closer look

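In the control cTregs, Irf4 read 8.77 in replicate 1 and 9.19 to 9.26 in the other 3 arrays. The gap of replicate 1 to its nearest neighbour was 0.867 of the range of the group, which is above the 95% critical value of Dixon's test for 4 samples. Of the 18 groups of 4 arrays examined, this was the 1 that passed, and chance passes about 1 in 20. The same array was the lowest control cTreg for 6 of the 9 factors.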

How the results depend on the processing

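In controls the count of factors called higher in eTregs was 7, and 7 to 8 when 1 array was left out. It was 5 with a filter on background, which removed Prdm1, Tbx21 and Pparg from the test. In KO arrays it was 5, and 8 with array weights, 8 with the replicate block as a random term, 7 with it as a fixed term and 4 to 8 when 1 array was left out. With the 2 KO groups fitted alone it was 4, and Prdm1 was not called (adjusted P = 0.0891). No factor was called between genotypes with any 1 array left out. The labels do not say what the replicate numbers mark. As a hint from the data, 6 of 7 samples correlated best with the sample of their own number. Not every correlation was over 0.1 (0.044 to 0.303). The main fit took no pairs, as the study's methods name no block. These correlations cannot settle whether same-numbered arrays share a mouse. With the block Irf4 and Batf were also called in KO arrays, and it changed no call between genotypes.

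Array weights turned the eTreg genotype difference of Prdm1 to 0.16, Rora 0.16, Maf 0.0087 and Id2 0.083, and the cTreg difference of Tbx21 to 0.011. Subtracting array medians turned that of Batf in cTregs to -0.0054, and the mean of the clusters of Rora turned its interaction to -0.068. When 1 array was left out, the KO subset difference of Gata3 ran from -0.14 to 0.057. The eTreg genotype differences ran from -0.67 to 0.27 for Prdm1, -0.18 to 0.012 for Batf, -0.19 to 0.17 for Rora, -0.19 to 0.070 for Maf and -0.20 to 0.14 for Id2. Those in cTregs ran from -0.080 to 0.57 for Prdm1, -0.076 to 0.083 for Batf, -0.0030 to 0.20 for Gata3, -0.15 to 0.062 for Tbx21 and -0.22 to 0.069 for Pparg. The interaction ran from -0.87 to 0.074 for Prdm1, -0.26 to 0.14 for Irf4, -0.092 to 0.28 for Rora and -0.019 to 0.32 for Id2. Beyond fewer arrays or genes in the fit, the cause was not tested. Signs of differences near 0 are not settled by these data.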
